A study of Mus musculus with 6 samples.

Results

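The contactins and the contactin-associated proteins (Casprs) are paired families of neuronal adhesion molecules, and the RNA of 10 of their genes was followed here in mouse somatosensory cortex with and without Mef2c. The members were chosen by name and comprised the contactins Cntn1, Cntn2, Cntn3, Cntn4, Cntn5 and Cntn6 and the Casprs Cntnap1, Cntnap2, Cntnap4 and Cntnap5a. They are 10 of the 21597 named genes that entered the recovery of reads from the tables. All 10 members passed the filter on low values, as did 14577 genes in all, and no member was dropped. The groups were 3 Mef2c cKO mice (Mef2cfl/fl; Emx1-Cre) and 3 control mice (Mef2cfl/fl), all males of a mixed SVeV-129; C57BL/6J background, aged 14 weeks for replicate 1 of each genotype and 12 weeks for replicates 2 and 3. Both genotypes carried the floxed Mef2c allele, and the controls were littermates that lacked Cre. Cre was expressed from the Emx1 locus, which is active from embryonic stages in the lineage of forebrain excitatory neurons and some glia, so that interneurons, microglia and vessels of the cKO cortex keep an intact gene. Nothing in the labels says whether an RNA sample came from a single mouse or from pooled tissue, and each is called a mouse here.

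Contactins are immunoglobulin-superfamily proteins held at the cell surface by a lipid anchor, whereas Casprs are transmembrane relatives of the neurexins. Contactin-1 and Caspr (the product of Cntnap1) form a complex at the paranode, where myelin loops attach to the axon beside the node of Ranvier, and contactin-2 and Caspr2 form another at the neighboring juxtaparanode, where potassium channels gather. Contactins 3 to 6 and the remaining Casprs are known mainly as cell-surface molecules of growing axons and synapses, and several members have been studied for their links to autism. MEF2C is a transcription factor that binds AT-rich DNA and is abundant in cortical excitatory neurons.

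The tables hold RPKM, the reads on a gene scaled to its length in kilobases and to the total of the sample. For a given gene the length used in that division differed between mice. Cntn1, for example, was divided by 15312 bases in control replicate 1 and by 698837 bases in control replicate 2, and its deposited values were accordingly 30.3 and 0.591 RPKM. The whole reads behind the values were therefore recovered, and the levels below are reads per 1000000 reads of the sample (CPM), with no length unless one is named. The recovered libraries held between 19326365 and 54128334 reads, the smallest being Mef2c cKO replicate 2. A member had between 244 and 23932 reads in a mouse. Its counting error in a single mouse, as the root mean square over the mice of a genotype, was at most 5.27%. In every member and genotype this error was smaller than the spread between mice.

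The genotypes of the libraries rest on their labels. Mef2c itself had 800, 772 and 800 CPM in the controls and 1231, 1276 and 1468 CPM in the cKO mice, so that its count was higher in every cKO mouse (log2 fold change 0.74 ± 0.08 SE, limma adjusted p = 0.000178). A count over a whole gene also takes in exons outside the deleted part, and it is therefore no check of the deletion. Libraries of the same genotype differed less than libraries of different genotypes, with Pearson's r across genes of 0.992 to 0.995 against 0.978 to 0.981. All 10 cortical excitatory neuron markers were above 1 CPM in at least one mouse, with summed levels of 4869 to 5588 CPM in controls and 5144 to 6014 CPM in cKO mice. These overlapping sums join markers that moved in opposite directions, some of which rose and 3 of which fell (Cux2, Fezf2 and Rorb). Summed pan-neuronal markers were higher in every cKO mouse, at 8281 to 8934 CPM against 6979 to 7877 CPM, and summed astrocyte markers were lower, at 4121 to 4385 CPM against 4679 to 4966 CPM. The astrocyte sum also joins markers of both directions, as 2 called markers rose (Aqp4, Gfap) and 1 fell (Aldh1l1). Summed striatal markers were 175 to 248 CPM in controls. In cKO replicates 1, 2 and 3 they were 359, 165 and 310 CPM, so that replicates 1 and 3 lay above every control. Thalamic markers summed to 54.7 to 65.3 CPM in controls and 49.1 to 58.3 CPM in cKO mice. Choroid plexus markers summed to 30.3 CPM in control replicate 3 against 8.53 to 10.9 CPM elsewhere. The part of neighboring tissue in the members' values was not tested.

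Loss of Mef2c was accompanied by lower RNA of Cntnap5a, Cntn6, Cntn5 and Cntn4 and by higher RNA of Cntnap4, while the genes of the paranodal and juxtaparanodal complexes were not called. Genes were called with limma at a Benjamini-Hochberg adjusted p-value under 0.05 over all genes tested and an absolute log2 fold change above 0.3. By these cut-offs 5 of 10 members were called, where 13.7% of all genes tested were called. The 4 members that fell compare with 7.77% of all genes, and the 1 that rose compares with 5.89%. The genotypes did not overlap in 7 of 10 members, 5 with every cKO mouse below every control and 2 with every cKO mouse above, against 33.8% of all genes. The median log2 fold change was -0.17 over the members and 0.01 over all genes tested. Because the members were chosen with earlier results of these data known, these comparisons are descriptions and no independent test. These are samples of bulk tissue, in which fewer cells of a type and less RNA per cell cannot be told apart.

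**Figure D1:**
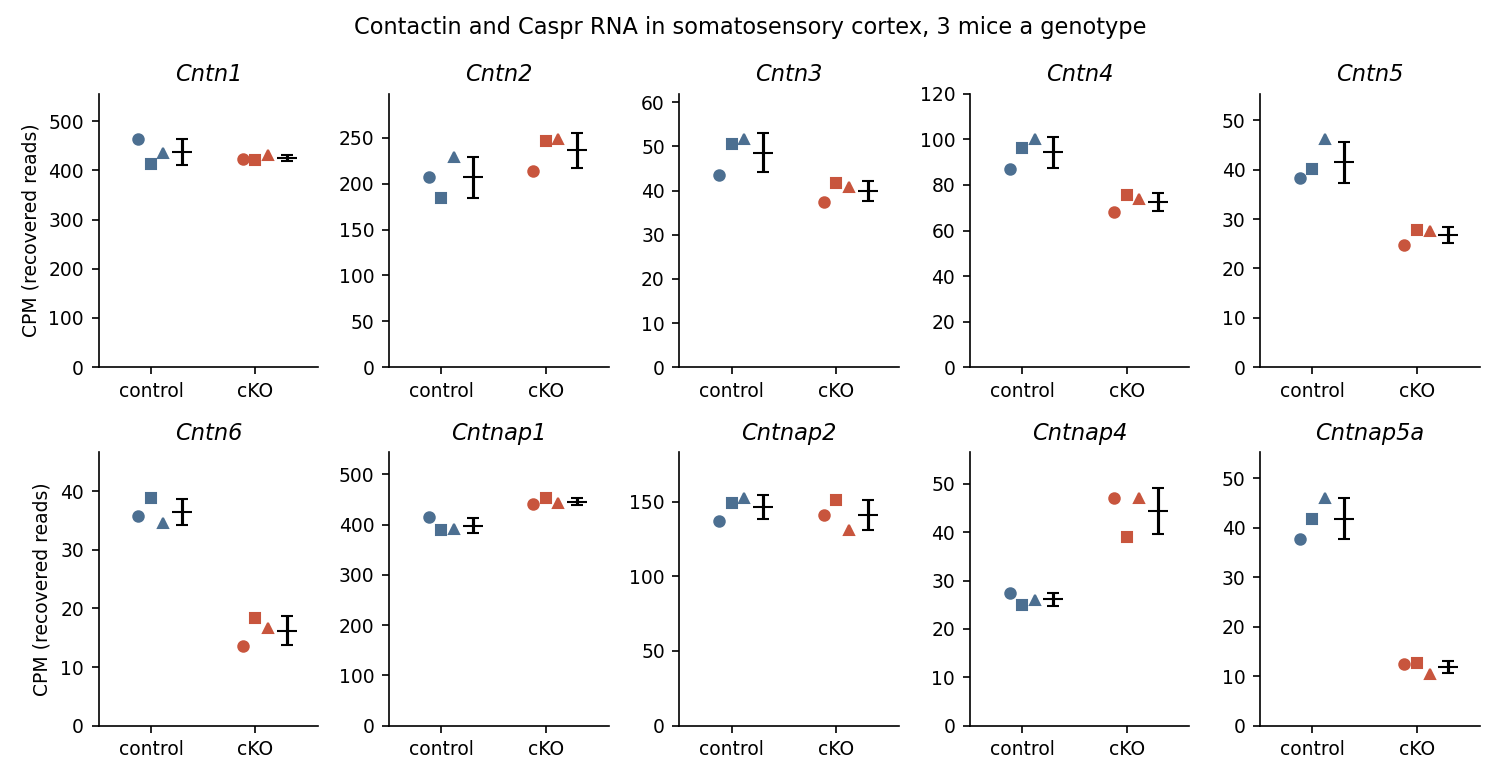
CPM from recovered reads (vertical axes, each starting at 0) of the 10 members in 3 control mice (blue) and 3 Mef2c cKO mice (red); circles, squares and triangles are replicates 1, 2 and 3, and the black marks are the mean ± SD. Cntnap5a, Cntn6, Cntn5, Cntn4 and Cntn3 lay lower in every cKO mouse than in any control, and Cntnap4 and Cntnap1 lay higher.

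Levels can be set side by side only per length, and for that the reads were divided by the summed exons of each gene in an mm9 gene annotation (4.53 kb for Cntn5 to 9.54 kb for Cntn2), which is not the annotation the authors counted on. On this scale Cntnap1 was the most abundant member in controls, at 67.7 ± 2.44 CPM per kb (SD, n = 3), followed by Cntn1 at 46.4 ± 2.71. Cntn2 and Cntnap2 came next at 21.7 ± 2.33 and 20.4 ± 1.2, and their control values overlapped. The next levels were 11.03 ± 0.798 for Cntn4, 9.32 ± 0.841 for Cntn3 and 9.17 ± 0.916 for Cntn5, of which the last pair overlapped. Cntnap5a (7.40 ± 0.733), Cntn6 (5.61 ± 0.341) and Cntnap4 (4.16 ± 0.205) were the least abundant, each below all control values of the one before. In the cKO mice the means of the first 6 genes had the same order, although Cntn4 and Cntn3 overlapped there. Cntnap4 moved from rank 10 to rank 7 by its mean of 7.07 ± 0.755 CPM per kb, overlapping with Cntn3 above it and not with Cntn5 below it, and Cntnap5a moved from rank 8 to rank 10 with 2.09 ± 0.208, where it overlapped with Cntn6 at 2.49 ± 0.377.

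**Figure D2:**
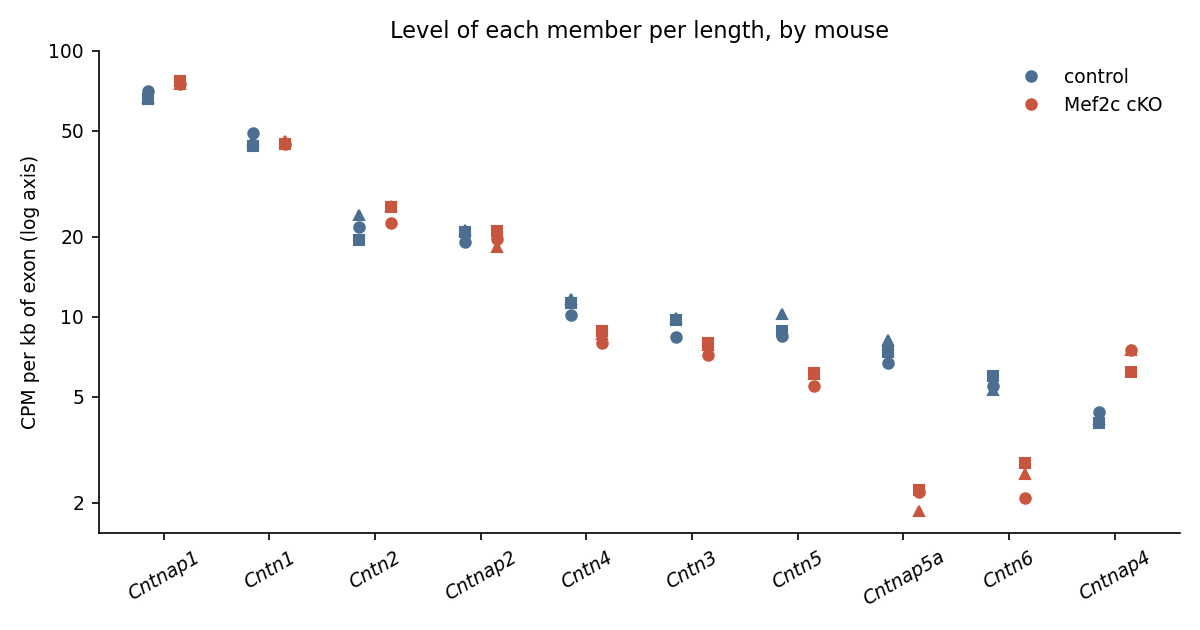
Level of each member in CPM per kb of exon (log axis) in 3 control mice (blue) and 3 Mef2c cKO mice (red), ordered by the control mean; symbols are replicates 1 (circle), 2 (square) and 3 (triangle). The levels run from 67.7 for Cntnap1 to 4.16 for Cntnap4 in controls, and Cntnap5a falls to 2.09 in the cKO mice.

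Contactin-1 is needed for the paranodal junction and is also made by many neurons outside it. Cntn1 (chr15:91881596-92172398 of mm9, plus strand) had 464, 413 and 436 CPM in the controls and 423, 421 and 432 CPM in the cKO mice. All cKO values lay within the range of the controls. Its log2 fold change of -0.04 ± 0.06 SE did not pass the test (limma adjusted p = 0.719), with a 95% interval from -0.17 to 0.09.

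Its partner Cntnap1 (chr11:101031837-101052038, plus strand), which encodes Caspr, had 414, 388 and 391 CPM in the controls and 441, 453 and 442 CPM in the cKO mice. Every cKO mouse lay above every control, but the log2 fold change was 0.16 ± 0.05 SE, under the fold cut-off, and the adjusted p was 0.0726 (limma). Of its exons 233 bases overlap those of Plekhh3 on the opposite strand. The libraries were directional, but whether strand was used in counting is not given in the sources used here.

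The reads of Cntn1 relative to those of Cntnap1 were fewer in every cKO mouse than in any control. The ratio of their reads, which depends on the lengths of both genes and can be compared only between mice, was 1.12, 1.06 and 1.11 in the controls and 0.959, 0.929 and 0.977 in the cKO mice. The difference of the log2 ratio was -0.20 with an exact two-sided permutation p of 0.1, the smallest value that 3 mice against 3 can give. A ratio within a library does not depend on how the libraries are scaled to each other.

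Contactin-2 sits on axons and also on the myelinating glial cell facing them. Cntn2 (chr1:134406002-134439517, minus strand) had 207, 185 and 229 CPM in the controls and 214, 247 and 249 CPM in the cKO mice. The genotypes overlapped, and the log2 fold change of 0.19 ± 0.09 SE did not pass the test (limma adjusted p = 0.19). The summed level of 10 myelinating oligodendrocyte markers was 3291 to 5411 CPM in controls and 5344 to 6868 CPM in cKO mice, and the ranges overlapped at their edges. Control replicate 2 was the lowest mouse both in this sum and in Cntn2. The median log2 fold change of these markers was 0.53, beside 0.01 over all genes tested. Of these 10 markers 2 were called, both higher in cKO mice, and none was below 1 CPM in every mouse. Mobp, a myelin structural gene, rose from 528 ± 129 to 814 ± 127 CPM (SD, n = 3). Cldn11, the tight-junction protein of myelin, rose from 128 ± 17.9 to 219 ± 37.2 CPM. The part of these cells in the Cntn2 values was not tested.

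Caspr2, the product of Cntnap2, holds the potassium channels of the juxtaparanode in place and is encoded by the longest member gene, 2241 kb at chr6:45010060-47251368 on the plus strand. Cntnap2 had 137, 149 and 153 CPM in the controls and 141, 151 and 131 CPM in the cKO mice. The groups overlapped and the log2 fold change was -0.05 ± 0.07 SE (limma adjusted p = 0.675, 95% interval from -0.21 to 0.11). The ratio of Cntn2 to Cntnap2 reads was 1.51, 1.24 and 1.501 in the controls and 1.52, 1.63 and 1.90 in the cKO mice. Control replicate 1 and cKO replicate 1 were nearly equal, and the log2 ratio differed by 0.25 with an exact permutation p of 0.1, again the smallest that the design allows. Leaving out control replicate 2 lowered this difference to 0.15, and leaving out cKO replicate 3 lowered it to 0.16.

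**Figure D3:**
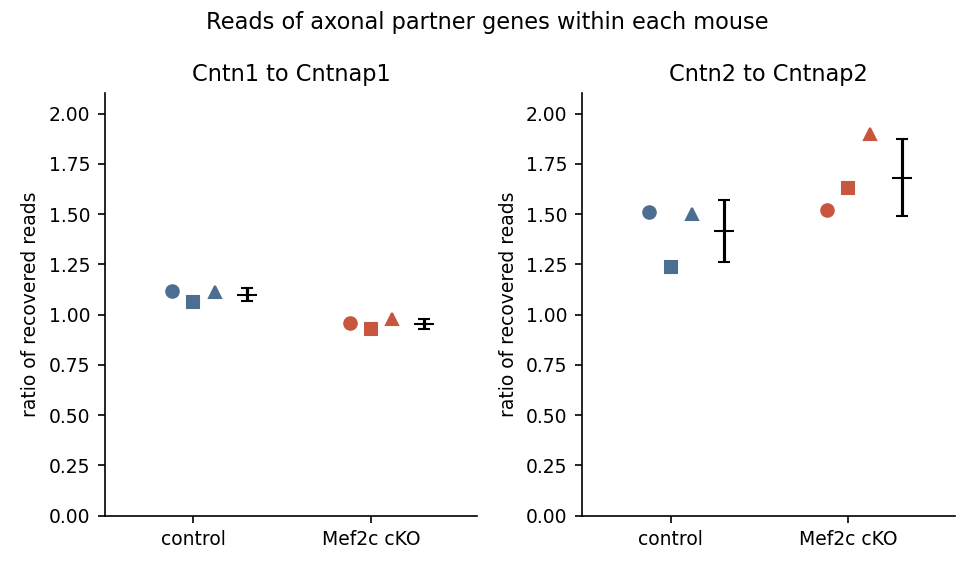
Ratio of recovered reads of Cntn1 to Cntnap1 (left) and of Cntn2 to Cntnap2 (right) within each mouse, for 3 controls (blue) and 3 Mef2c cKO mice (red), with mean ± SD in black; symbols are replicates 1 (circle), 2 (square) and 3 (triangle). The first ratio averages 1.10 in controls and 0.955 in cKO mice, and the second 1.42 and 1.68.

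The genes of the other contactins were lower in every cKO mouse than in any control, and 3 of 4 were called. Over all genes tested, the genotypes did not overlap in 33.8%, and 13.7% were called. Contactin-6, also called NB-3, is a neuronal adhesion molecule for which the close homolog of L1 (Chl1) is a known partner. Cntn6 (chr6:104442784-104813400, plus strand) had 35.8, 38.9 and 34.6 CPM in the controls and 13.5, 18.4 and 16.6 CPM in the cKO mice. The lowest control lay far above the highest cKO mouse, and the mean fell by 55.6%. The log2 fold change was -1.18 ± 0.11 SE (limma adjusted p = 0.000137), and it was -1.40 between the 14-week mice and -1.07 between the 12-week mice.

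Promoters of the members were searched for the sequence that MEF2 factors bind. Windows of 300 bases, 250 before to 50 after a gene start, were held by the RefSeq table (GRCm38.p6) for 7 of 10 members, Cntn1 to Cntn6 and Cntnap2, in 12 windows. The letters CTANNNNTAG, the outer bases of the MEF2 site, which read alike on both strands, occurred in 2 of these windows and in 3.69% of all 32851 windows. The MEF2 response element, which shares part of its matches with these letters, was searched on both strands and occurred in none of the members' windows and in 3.19% of all. The matches were in Cntn6, which fell, and in the first of 3 windows of Cntn1, which did not pass the test. The 250 bases before each start are shown with the match in capitals, 5′ to 3′ on the plus strand, for Cntn6 at GRCm38.p6 position chr6:104492794-104493043 and for Cntn1 at chr15:92050915-92051164.
Cntn6: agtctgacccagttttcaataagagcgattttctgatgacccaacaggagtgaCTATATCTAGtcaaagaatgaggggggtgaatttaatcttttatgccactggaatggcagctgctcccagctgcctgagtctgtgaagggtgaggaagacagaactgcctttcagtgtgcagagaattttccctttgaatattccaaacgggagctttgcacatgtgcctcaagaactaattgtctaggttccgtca
Cntn1: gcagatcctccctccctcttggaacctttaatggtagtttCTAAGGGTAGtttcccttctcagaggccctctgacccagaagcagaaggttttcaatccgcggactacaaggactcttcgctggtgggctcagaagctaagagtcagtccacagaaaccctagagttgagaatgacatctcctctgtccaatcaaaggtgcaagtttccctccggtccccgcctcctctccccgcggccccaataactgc
The match begins 197 bases before the start of Cntn6 and 210 bases before that of Cntn1. These are matches of letters in a short window, and no binding was measured here.

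Contactin-5, or NB-2, has been studied most in the auditory pathway. Cntn5 (chr9:9660891-10904775, minus strand) had 38.3, 40.2 and 46.2 CPM in the controls and 24.8, 27.9 and 27.5 CPM in the cKO mice. The mean fell by 35.6% with no overlap, at a log2 fold change of -0.63 ± 0.09 SE (limma adjusted p = 0.00116). Its values at the separate ages were close, -0.62 at 14 weeks and -0.64 at 12 weeks.

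Contactin-4 binds the amyloid precursor protein and the receptor phosphatase Ptprg. Cntn4 (chr6:105627654-106649304, plus strand) had 86.9, 96.3 and 100.1 CPM in the controls and 68.1, 75.6 and 73.7 CPM in the cKO mice. The mean fell by 23.3%, with a log2 fold change of -0.38 ± 0.07 SE (limma adjusted p = 0.00602), which is close to the fold cut-off of 0.3.

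Contactin-3, or BIG-1, belongs to the same branch of neuronal contactins. Cntn3 (chr6:102113300-102414661, minus strand) had 43.6, 50.6 and 51.6 CPM in the controls and 37.4, 41.7 and 40.9 CPM in the cKO mice. The genotypes did not overlap, and the adjusted p of 0.0499 (limma) was just under its cut-off, but the log2 fold change of -0.28 ± 0.08 SE stayed inside 0.3. Without control replicate 1, the control with the lowest value, it was -0.35 and passed both cut-offs. With any other mouse left out, the adjusted p (limma) was 0.0729 to 0.159, above its cut-off. Over all 16 other fits on recovered reads it ran from 0.0203 to 0.159.

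Cntn3, Cntn6 and Cntn4 lie on chromosome 6 within 4.54 Mb of the mm9 genome. The annotation places 4 protein-coding genes in that stretch, all tested. The only other one is Chl1, which lies between Cntn3 and Cntn6 and was chosen here for its position, with 157 ± 10.9 CPM in controls and 147 ± 31.8 CPM in cKO mice (SD, n = 3), a log2 fold change of -0.12 ± 0.13 SE that did not pass the test (limma adjusted p = 0.62). Neighboring genes in this stretch had log2 fold changes from -1.18 to -0.12. Every cKO mouse and no control carried Cre, on a mixed background. Effects of Cre, or of DNA inherited with it, cannot be told apart from loss of Mef2c and were not tested.

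**Figure D4:**
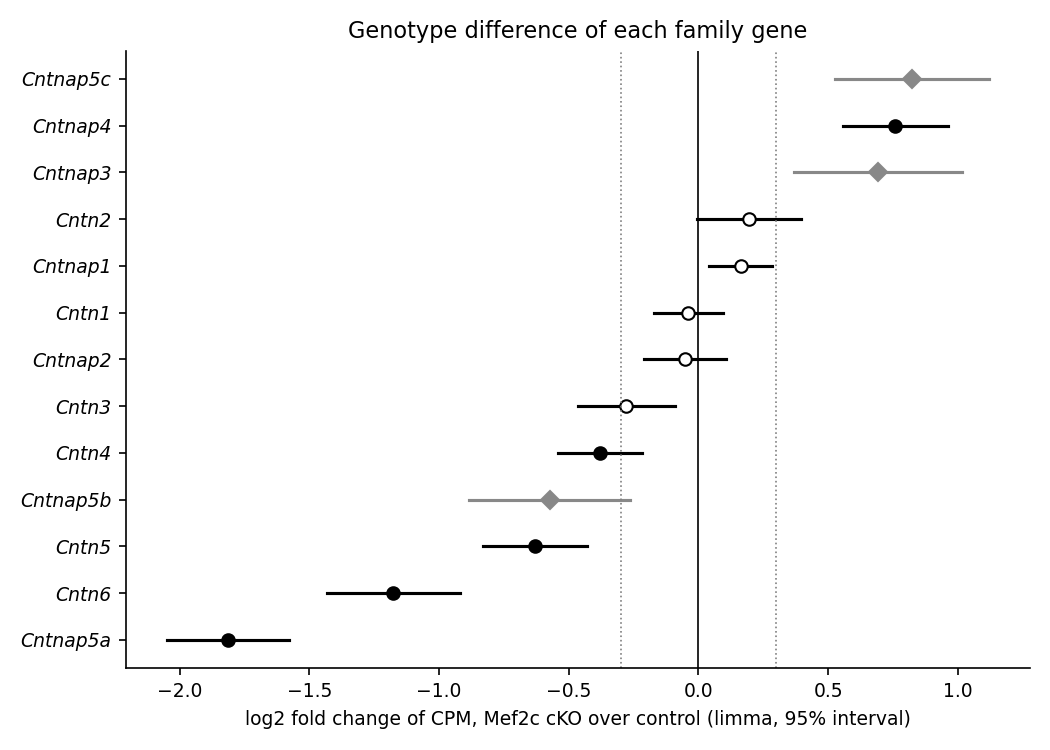
Log2 fold change of CPM, Mef2c cKO over control, with the 95% interval from limma, for the 10 members (circles) and for Cntnap3, Cntnap5b and Cntnap5c (gray diamonds). Filled symbols passed both cut-offs, open symbols did not, and dotted lines mark the fold cut-off of 0.3; values run from -1.81 for Cntnap5a to 0.82 for Cntnap5c.

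The makeup of the contactin RNA differed between the genotypes. Per length, the 6 contactins summed to 103 ± 4.21 CPM per kb in controls and to 94.4 ± 3.87 in cKO mice (SD, n = 3). Cntn6 made up 5.45% ± 0.554 of that sum in controls and 2.63% ± 0.310 in cKO mice. The share of Cntn5 was 8.88% ± 0.669 and 6.25% ± 0.15, and that of Cntn2 was 21.0% ± 1.40 and 26.2% ± 1.10. The values of each of these 3 shares did not overlap between the genotypes. Those of Cntn4 (10.7% ± 0.793 and 8.96% ± 0.179) also did not overlap, whereas those of Cntn1 and Cntn3 did. Shares add up to a whole, so that a lower share of some genes must appear as a higher share of others.

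Among the Casprs the differences ran both ways. Caspr5-1, the product of Cntnap5a, is a neuronal relative of the neurexins. Cntnap5a (chr1:117581333-118478603, plus strand) had 37.8, 41.7 and 46.1 CPM in the controls and 12.4, 12.6 and 10.5 CPM in the cKO mice. Its mean fell by 71.7%, the largest difference among the members, at a log2 fold change of -1.81 ± 0.10 SE (limma adjusted p = 6.98e-06). The fall was present at both ages, with -1.60 between the 14-week mice and -1.92 between the 12-week mice.

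Caspr4 is known as a presynaptic protein of cortical interneurons. Cntnap4 (chr8:115093943-115406617, plus strand) had 27.5, 24.9 and 25.9 CPM in the controls and 47.2, 38.9 and 47.1 CPM in the cKO mice. The lowest cKO mouse exceeded the highest control, and the mean was 1.70-fold higher, at a log2 fold change of 0.76 ± 0.09 SE (limma adjusted p = 0.000449). The log2 difference was 0.78 at 14 weeks and 0.75 at 12 weeks. The summed level of 10 interneuron markers was also higher, with 1265 to 1427 CPM in cKO mice and 1097 to 1204 CPM in controls. Of these markers 3 rose (Cck, Npy and Sst) and 1 fell (Pvalb), and none was below 1 CPM in every mouse. The part of interneuron RNA in the Cntnap4 values was not tested.

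Per length, the 4 Caspr members summed to 99.7 ± 1.26 CPM per kb in controls and to 105 ± 1.93 in cKO mice (SD, n = 3). Cntnap1 made up 68.0% ± 1.88 of this sum in controls and 72.5% ± 0.639 in cKO mice. The share of Cntnap5a was 7.43% ± 0.754 and 2.0% ± 0.17, and that of Cntnap4 was 4.17% ± 0.160 and 6.76% ± 0.830. In controls Cntnap5a thus had the larger share of the pair in each mouse, and in cKO mice Cntnap4 did.

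The 3 remaining Caspr genes of the mouse were all called, beside 13.7% of all genes, and they did not share a direction. Cntnap5b, a paralog of Cntnap5a, fell from 25.4 ± 2.50 to 17.2 ± 3.27 CPM (SD, n = 3), a log2 fold change of -0.57 ± 0.14 SE (limma adjusted p = 0.02). Cntnap5c rose from 6.87 ± 0.898 to 12.2 ± 1.41 CPM, a log2 fold change of 0.82 ± 0.13 SE, and Cntnap3 rose from 10.4 ± 2.12 to 16.7 ± 1.53 CPM, a log2 fold change of 0.69 ± 0.14 SE. Reads of near-identical copies can be split or lost in counting. Of the stretches of 50 bases in the annotated coding transcripts of Cntnap5a, at most 1.96% also occurred in another gene of the family. This is an upper bound, because a stretch found in several other genes was counted for each. The transcripts of Cntnap5a were the only member transcripts with such a stretch.

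The partners of these proteins were examined by lists of genes. Of 25 genes of the node of Ranvier and its flanks, 5 fell and none rose, with a median log2 fold change of -0.06. The M-channel subunit Kcnq3 fell from 106 ± 20.3 to 54.1 ± 4.11 CPM (SD, n = 3), a log2 fold change of -0.95 ± 0.12 SE (limma adjusted p = 0.000756). The juxtaparanodal potassium channel genes Kcna2 and Kcnab1, which encode a pore and a beta subunit of the channel complex that Caspr2 gathers, fell by 24.4% and 27.7%. The sodium channel Scn1a, which is prominent in interneurons, fell by 23.9%, and the fifth gene was Lgi1, a secreted ligand of Adam22, from a mean of 142 to 108 CPM. The other 20 genes of the list were not called, among them the further potassium channel genes Kcna1, Kcna4 and Kcnab2. Also among these 20 were the nodal adhesion genes Nfasc (log2 fold change 0.17) and Nrcam (-0.06). The called share was 20% of this list and 13.7% of all genes.

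All 17 ligands and coreceptors of contactins were tested, and 2 rose and 1 fell, a called share of 17.6% beside 13.7% of all genes. Ptprg, the phosphatase that binds contactins 3 to 6, fell from 79.8 ± 8.11 to 58.1 ± 2.99 CPM (SD, n = 3), a log2 fold change of -0.45 ± 0.08 SE (limma adjusted p = 0.00516). Tnc, an extracellular matrix protein that binds contactin-1, rose from 5.75 ± 1.09 to 13.9 ± 2.48 CPM, and Notch1, a receptor reported to bind contactin-1, rose from 32.1 ± 1.57 to 40.8 ± 4.19 CPM. The paralog Ptprz1, a contactin-1 ligand on glia, had a log2 fold change of 0.02 and was not called.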

How the data were processed

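PolyA-selected, directional libraries of somatosensory cortex from 3 control and 3 Mef2c cKO mice were sequenced by the authors, aligned to mm9 with TopHat and Bowtie and counted on genes with HTSeq (versions not given in the sources used here). The deposited values are RPKM, computed by the authors, with one table per mouse. Of 21759 rows 92 had no gene name and were left out. Of the 21667 named genes, the 21597 with an Entrez number entered the recovery below, and 21566 had a count in every mouse.

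Within each table the reads had been divided by a short list of lengths repeated along the rows in the order of Entrez gene numbers sorted as text. The library total and this list (65 to 295 lengths) were found from the steps between low values, and reads were taken back as whole numbers within the rounding of the table for 99.82% to 99.85% of the values above 0. They add to 99.74% to 99.77% of the totals. This recovery was chosen after seeing the data. It was tested on simulated tables.

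Log2(CPM + 0.1) was compared by limma 3.58.1 (R 4.3.3; eBayes with a variance trend, genotype only) for genes with CPM above 0.5 in every mouse of at least 1 genotype and at least 2 counts in each. The pseudocount makes fold changes of low genes too small. Genes were called at a Benjamini-Hochberg adjusted p under 0.05 and an absolute log2 fold change above 0.3, the study's cut-offs. Ratios were compared by an exact two-sided permutation test. Python 3.11.15, numpy 2.4.6, pandas 2.3.3, scipy 1.17.1 and matplotlib 3.10.9 were used. The p-values measure the spread between these samples only.

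The members, lists and tests were chosen with earlier results of these data known. Named genes are the members, Mef2c, up to 4 called genes in each direction with the largest changes in each partner list and the called myelin markers. Lgi1, Cadm3, Nfasc, Nrcam, Kcna1, Kcna4, Kcnab2, Ptprz1 and Chl1 were named after their values were seen. Marker lists of precursors, astrocytes, microglia, endothelial cells and neurons at large were also examined: 2 of 5 oligodendrocyte precursor markers (Olig1, Olig2), 2 of 8 astrocyte markers (Aqp4, Gfap) and 2 of 9 pan-neuronal markers (Nefl, Stmn2) rose, 1 astrocyte marker (Aldh1l1) fell, and no microglial or endothelial marker was called. Of the other lists, 1 of 7 striatal markers (Penk) rose, 1 of 5 thalamic markers rose (Prkcd) and 1 fell (Slc17a6), and no choroid plexus marker was called. These marker names were added after their values were seen. Lphn1 was read under its current symbol, Adgrl1. Calls of the other cortical excitatory neuron markers are not reported here. Alternatives changed the pseudocount, filter, scaling, measure, variance model, pairing and samples.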

Additional observations from a re-analysis of the deposited data

How the results depend on the processing

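On the deposited RPKM, whose lengths differ between mice, limma called 14 of 7963 genes, 0 of 6 members tested (0 at an unadjusted p under 0.05) and 0 of 58 partner-list genes (5 at an unadjusted p under 0.05). There the log2 fold changes of Cntn1 (1.96), Cntn2 (-2.04), Cntn4 (0.82) and Cntnap2 (0.035) had the opposite sign, and so had the log2 ratios of Cntn1 to Cntnap1 (1.78) and Cntn2 to Cntnap2 (-2.09). On recovered reads, 16 other fits called 5 or 6 members, the sixth being Cntn3 without control replicate 1, and adjusted p alone also gave 6. With each mouse left out in turn, the log2 fold change of Cntn1 ran from -0.080 to 0.0038 and changed sign only without control replicate 1. The 5 called members kept their direction and call in all of these, with log2 fold changes from -1.89 to -1.73 for Cntnap5a, -1.27 to -1.05 for Cntn6, -0.69 to -0.55 for Cntn5, -0.44 to -0.34 for Cntn4 and 0.71 to 0.85 for Cntnap4. Counts were 1651 to 2376 for all genes and 14 to 22 of 66 for the partner lists.

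Same-numbered mice did not deviate together (correlations of -0.18, -0.11 and -0.08 across genes), so the replicate numbers were not taken to pair them. With the replicate block 1690 genes, 5 members and 15 partner-list genes were called, and the log2 ratios were -0.20 and 0.25 within pairs. With 3 mice a group small differences such as those of Cntn2 and Cntnap1 are poorly bounded.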

Other observations

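A wider list of immunoglobulin-superfamily adhesion genes of neurons, outside the contactins, held 5 genes that fell and 2 that rose among 21 tested, where 13.7% of all genes were called. Igsf9, a dendritic adhesion gene, fell from 7.51 ± 1.36 to 2.50 ± 0.697 CPM (SD, n = 3). Negr1, one of the lipid-anchored IgLON proteins, fell from 227 ± 17.3 to 104 ± 8.69 CPM, and its relative Ntm fell from 255 ± 28.2 to 197 ± 18.0 CPM. Kirrel3, a synaptic adhesion gene, fell from 58.7 ± 9.0 to 33.9 ± 4.18 CPM, and the remaining gene that fell was Cadm3, from a mean of 541 to 430.4 CPM.

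The gene with the largest change in that list was Mdga1, a lipid-anchored protein that binds neuroligins, which rose from 11.4 ± 1.6 to 77.0 ± 10.1 CPM, a log2 fold change of 2.75 ± 0.12 SE. Alcam, an adhesion protein of axons, rose from 144 ± 4.63 to 195 ± 7.08 CPM. In neither of these genes did the genotypes overlap.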
